A study of Rattus norvegicus with 2 samples.

Results

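The entries described here are the 368 lines of the deposited miRNA table whose name starts with the mouse prefix mmu, chosen by that prefix alone, out of 12498 named lines. The table belongs to a small RNA sequencing study of rat cells, so these are mouse names in a rat data set, and they make up 2.944% of its lines. The other lines carry 723 rat names, 749 human names and 10658 predicted arms.

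The study compared 1 pressure sample, treatment label "activated pressure", with 1 control sample. Both were labelled as primary hepatic stellate cells from Sprague-Dawley rats, male and weighing 400 to 600 g, cultured in DMEM with 20% FBS, penicillin and streptomycin, and sequenced on an Ion Proton instrument. The labels give both samples the same protocol text, in which primary cells cultured for 14 days were loaded with nitrogen at 10 mmHg for 1 h, so they do not state how the control was handled. In the liver, stellate cells wrap the sinusoids and, once activated, lay down most of the scar collagen of fibrosis. The 2 columns of read counts are named by sequencing barcode alone, and no label used here ties a barcode to a sample. They were therefore not used, and how strongly any mouse-named entry was detected, the depth of each sample, the response to pressure and the presence of stellate cell markers were not analysed here. What follows describes the names and sequences that the table lists. The counts below are of lines in a list and carry no sampling error, and nothing was tested.

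A mature miRNA is a short RNA cut from 1 arm of a hairpin precursor, and the ending 5p or 3p names the arm. It pairs with target mRNAs mainly through its seed, the stretch from base 2 to base 8, so that miRNAs with the same seed form families with overlapping targets, and a shift of the 5′ end by a base changes the seed. Many miRNAs are the same in mouse and rat. A read from such a miRNA fits the rat-named and the mouse-named line equally well.

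A full-length identical rat-named entry was found for 24 of the 368 mouse-named entries, or 6.522%. The following are shown as a selection of well-known miRNAs among them, several known from fibrosis, vascular, immune or dividing cells. The selection is not complete, and miR-20b-5p, for example, is not printed. The capitals mark the seed, and the letters are those of the table, with T for U.
mmu-miR-21a-5p and rno-miR-21-5p: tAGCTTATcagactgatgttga
mmu-miR-126-3p and rno-miR-126a-3p: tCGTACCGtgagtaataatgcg
mmu-miR-146a-5p and rno-miR-146a-5p: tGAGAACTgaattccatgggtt
mmu-let-7a-5p and rno-let-7a-5p: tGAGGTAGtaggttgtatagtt
mmu-miR-26a-5p and rno-miR-26a-5p: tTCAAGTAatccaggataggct
mmu-miR-30c-5p and rno-miR-30c-5p: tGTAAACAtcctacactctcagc
mmu-miR-16-5p and rno-miR-16-5p: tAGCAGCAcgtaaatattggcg
mmu-miR-195a-5p and rno-miR-195-5p: tAGCAGCAcagaaatattggc
mmu-miR-17-5p and rno-miR-17-5p: cAAAGTGCttacagtgcaggtag
mmu-miR-20a-5p and rno-miR-20a-5p: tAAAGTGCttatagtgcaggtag
mmu-miR-93-5p and rno-miR-93-5p: cAAAGTGCtgttcgtgcaggtag

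These identical entries span several cell types. miR-21 is known for its rise in fibrosis and cancer, miR-126 from endothelium, miR-146a from the damping of innate immune signalling, and miR-122, listed as mmu-miR-122-5p, from hepatocytes. The miR-17 family, here miR-93-5p, miR-17-5p and the 5p arms of miR-20a and miR-20b, is known for promoting the cell cycle, and the miR-15/16 family, here miR-16-5p and miR-195a-5p, for restraining it. The remaining identical entries were miR-7a-5p, miR-24-2-5p, miR-28a-5p, miR-140-5p, miR-188-5p, miR-219-5p, miR-339-5p, miR-664-3p, miR-674-3p, miR-874-3p and miR-1224-5p. Of the 24, 19 had the same name in both species after the prefix. The other 5 differed in name only: mouse miR-21a, miR-28a and miR-195a stood for rat miR-21, miR-28 and miR-195, mouse miR-126-3p for rat miR-126a-3p, and mouse miR-1224-5p for rat miR-1224.

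The rat genome position of an identical entry was read from RefSeq hairpins of the build GRCr8, which need not be the build behind the table. The whole sequence stood in at least 1 of the 419 RefSeq rat hairpins for 22 of the 24, the exceptions being miR-126-3p and miR-28a-5p. The miR-21a-5p sequence lay at chr10:71902653-71902674 on the minus strand, in Mir21, with no other gene span over it. miR-16-5p lay at chr2:155555343-155555364 on the plus strand within the span of Smc4, and miR-93-5p at chr12:22156894-22156916 on the minus strand within Mcm7, a gene of DNA replication. miR-26a-5p lay at chr8:127633063-127633084 on the plus strand within Ctdspl, and miR-140-5p, known from cartilage, at chr19:52375314-52375335 on the plus strand within Wwp2. Exons, introns and the strand of these surrounding genes were not compared.

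A further 57 mouse-named entries, or 15.489%, were near-identical to a rat-named entry. This means at most 2 substitutions without gaps, with the shorter sequence hanging over the longer by at most 2 bases. Of these, 16 had no substitution and differed in their ends alone, 22 had 1 substitution and 19 had 2. In 47 of the 57 the rat partner had the same family number. Examples with 1 substitution are shown here because they place the change inside or outside the seed of a known miRNA. The capitals mark the substituted base.
mmu-miR-199b-5p: cccagtgttTagactacctgttc
rno-miR-199a-5p: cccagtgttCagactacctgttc
mmu-miR-125b-2-3p: acaagtcaggTtcttgggacct
rno-miR-125b-2-3p: acaagtcaggCtcttgggacct
mmu-miR-92b-5p: agggacgggacgTggtgcagtgtt
rno-miR-92b-5p: agggacgggacgCggtgcagtgtt
mmu-miR-181b-2-3p: ctcactgAtcaatgaatgcaaa
rno-miR-181b-2-3p: ctcactgGtcaatgaatgcaaa
mmu-miR-489-3p: aatgacaCcacatatatggcagc
rno-miR-489-3p: atgacaTcacatatatggcagc

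Substitutions are written with the rat base first, its position from 1 at the 5′ end of the rat entry, and then the mouse-named base. The entry mmu-miR-199b-5p, of the miR-199 family linked to liver fibrosis, differed from rat miR-199a-5p by C10T and kept its seed. The passenger arms miR-125b-2-3p and miR-92b-5p differed by C11T and C13T, and also kept theirs. In contrast, miR-181b-2-3p differed by G8A, inside the seed, and miR-489-3p by T7C. The mouse-named miR-489-3p also started 1 base upstream of the rat entry, so its seed was shifted as well. Over all near-identical entries there were 60 substitutions, of which 13 lay at bases 2 to 8 of the rat entry and 36 were transitions, an exchange of A with G or of C with T. The most frequent kinds were C-to-T with 14 and T-to-C with 11. The 60 pool pairs of the same name with pairs of other copies or other family numbers. They therefore do not count changes between a mouse miRNA and its rat counterpart. The share of compared bases that lie at bases 2 to 8 was not worked out.

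The ends of an entry changed the seed as well. Of the 57 near-identical entries, 22 had the same seed as their rat partner and 35 had another. Among the 16 without a substitution, 9 kept the seed, and 7 started at another base and had a different one. The entry for miR-146b-5p, an immune miRNA of the same seed as miR-146a-5p, had 22 nt against 24 nt in the rat entry, with the difference at the 3′ end. The mouse-named miR-381-3p, of the imprinted Dlk1-Dio3 cluster, had 22 nt against 18 nt, and again the 5′ ends were the same. The mouse-named miR-1306-5p started 2 bases upstream of the rat entry, so that its seed differed although 21 shared bases held no substitution. These pairs are printed for their ends, with the seed in capitals for the mouse-named entries.
mmu-miR-146b-5p: tGAGAACTgaattccataggct
rno-miR-146b-5p: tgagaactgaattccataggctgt
mmu-miR-381-3p: tATACAAGggcaagctctctgt
rno-miR-381-3p: tatacaagggcaagctct
mmu-miR-1306-5p: cACCACCTcccctgcaaacgtcc
rno-miR-1306-5p: ccacctcccctgcaaacgtcca

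**Figure D1:**
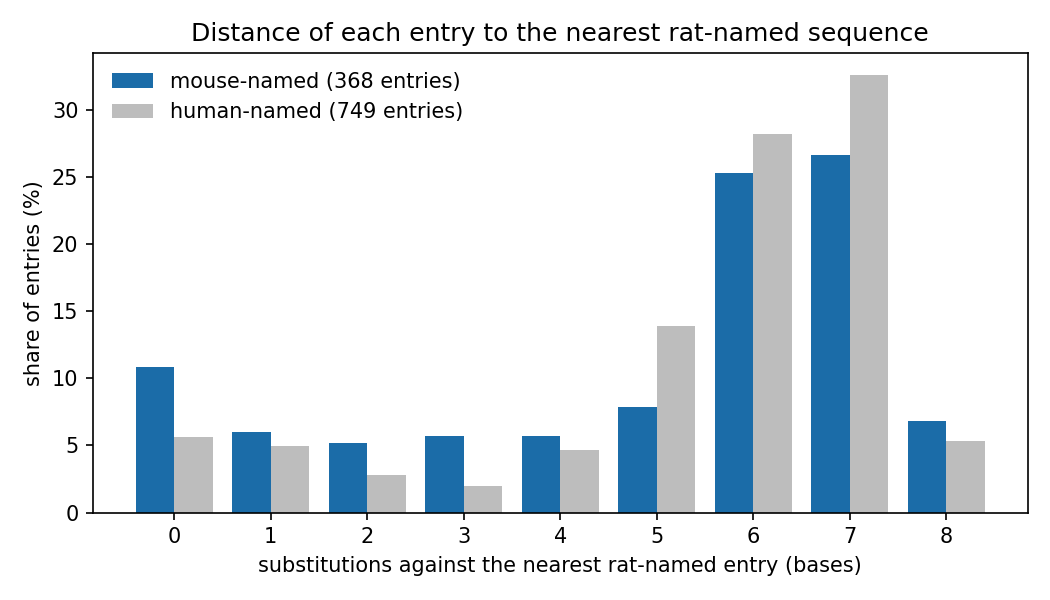
Share of entries in percent (vertical axis) by the number of substitutions against the nearest rat-named entry (horizontal axis), for the 368 mouse-named and the 749 human-named entries. Bars at 0 include entries that differ from the rat-named one only at their ends, in length or in the base at which they start. Both sets peak at 7 substitutions, with 26.63% of the mouse-named and 32.577% of the human-named entries, and 10.87% of the mouse-named against 5.607% of the human-named entries sit at 0. Each value is the best of all ungapped placements, so a nearest entry with many substitutions need not be a related miRNA.

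A partner of another family number was nearest for 10 of the 57. The entry mmu-miR-3965 matched rat miR-21-5p but for A2T and A12C over 19 bases, mmu-miR-3966 matched rat miR-22-3p but for T11C and A14T over 21 bases, and mmu-miR-3970 matched rat let-7i-5p but for A7T and G20T over 20 bases. The entry mmu-miR-5127 matched rat miR-150-5p, a lymphocyte miRNA, but for G14T and A16C over 19 bases, and mmu-miR-1971 matched rat miR-320-3p but for A4G and T11C over 16 bases. Of these 5, miR-5127 alone had the seed of its rat partner. Another, miR-106a-3p, had rat miR-17-2-3p as its nearest entry, with C7G and A11C, and belongs with it to the miR-17 family of clusters. The last 4 were miR-467c-3p, miR-467g, miR-669b-3p and miR-669f-3p, nearest to rat entries of miR-466b.

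The limit of 2 substitutions runs through a gradual range. The 19 entries with 2 substitutions had a rat partner of the same family number available in the table in 10 cases, and the 21 entries with 3 substitutions in 15 cases. Just outside were miR-145b, whose rat relative miR-145-5p is known from contractile cells, as well as miR-195b and miR-193b-3p. Some beyond the limit carried a number of their own: miR-1961 was 3 substitutions from rat let-7a-5p over 17 bases, and miR-3964 was 3 from rat miR-142-5p over 20 bases.

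A shared name did not always mean an identical sequence. Of the 48 mouse-named entries with a rat entry of the same name, 19 were identical, 22 differed within 2 substitutions and 7 differed by more under the placement rule used. Those 7 were miR-181a-2-3p, miR-463-3p, miR-466b-5p, miR-466c-3p, miR-489-5p, miR-547-3p and miR-881-5p. For miR-181a-2-3p, printed here for the offset of its ends, the longest stretch that both entries shared was 12 bases. That offset is larger than the overhang of 2 bases that the rule allows. The whole mouse-named sequence stood in the RefSeq rat hairpin Mir181a2 with 1 substitution, so the pair is shifted rather than unlike. For miR-881-5p, a miRNA of the X-linked testis cluster, the longest shared stretch was 5 bases. The mouse-named miR-378b differed from rat miR-378b by G2C and G21A, and was closer to rat miR-378a-3p, with G21A alone.
mmu-miR-181a-2-3p: accgaccgttgactgtaccttg
rno-miR-181a-2-3p: accaccaaccgttgactgt

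Among the mouse-named entries with neither an identical nor a near-identical rat-named entry, 40 had a rat entry of the same family number. It could be the other arm, another copy or an entry of the same name. The 7 entries above that share a full name but differ by more than 2 substitutions are among the 40. This class is called family number only here, also for those 7. The other 247, or 67.12% of all mouse-named entries, had none of these and are called unmatched here. Their longest stretch shared with any rat entry had a median of 8 bases, against 22 for the identical and 16 for the near-identical entries. The human-named entries of the same table, sorted by the same rules, were identical in 4.272%, near-identical in 9.079% and unmatched in 83.178%.

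The unmatched entries lay mostly in the high family numbers, which were assigned later as miRNAs were catalogued. Of the 151 entries with a number below 1000, 46 were unmatched, or 30.5%. Of the 84 with a number of 5000 and above, 83 were unmatched, or 98.8%, and the exception was the near-identical miR-5127. The 24 identical entries had numbers below 1000, with miR-1224-5p as the exception.

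**Figure D2:**
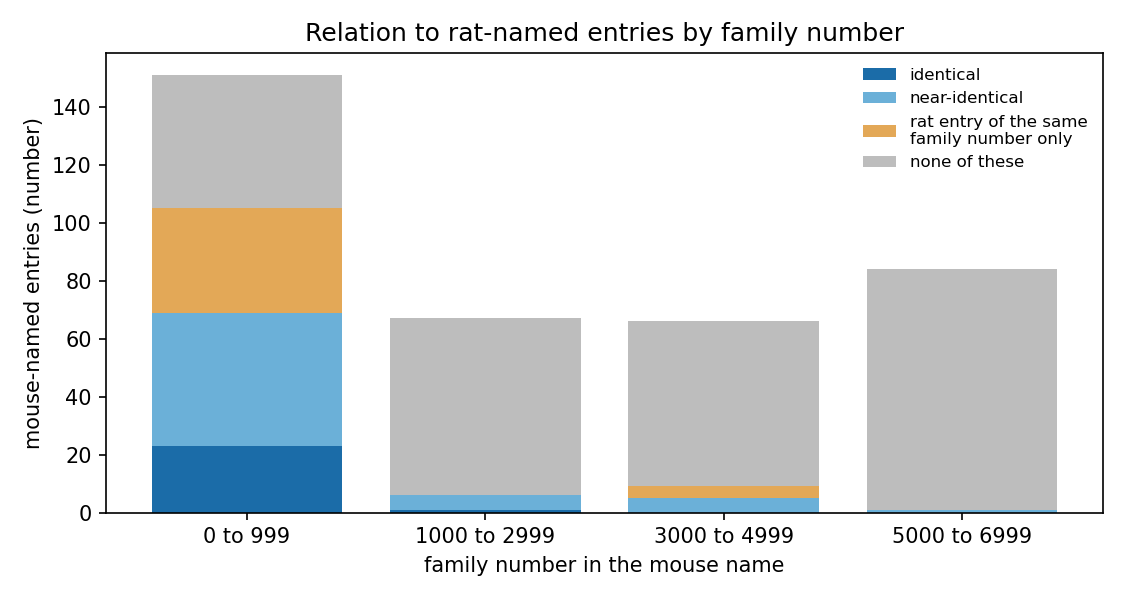
Number of mouse-named entries (vertical axis) by the family number in the name (horizontal axis), split by their relation to the rat-named entries. In the lowest block 23 entries are identical and 46 near-identical, while in the highest block none is identical and 83 of 84 are unmatched.

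Some of the entries without a rat-named line of their own belong to well-known miRNAs. Both arms of miR-486, an erythroid miRNA, were listed under mouse names, and no rat-named entry of that family number stood in the table. The mouse-named miR-3107-5p had the same sequence as miR-486-5p. Both arms of miR-574 were listed under mouse names, and no rat-named entry of that number. Both arms of miR-193b were listed as well, where the rat-named lines held miR-193 arms but none of miR-193b. The mouse-named miR-15a-5p, of the growth-restraining miR-15/16 family, stood beside a nearest rat entry, miR-15b-5p, from which it differed by 4 substitutions. The line for miR-590-5p had the seed of miR-21-5p, while its nearest rat-named entry was miR-129-1-3p, with 6 substitutions over 17 bases. They are printed as the table's lines for these known miRNAs, with the seed in capitals.
mmu-miR-486-5p: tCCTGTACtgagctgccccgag
mmu-miR-486-3p: cGGGGCAGctcagtacaggat
mmu-miR-574-5p: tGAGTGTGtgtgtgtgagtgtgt
mmu-miR-574-3p: cACGCTCAtgcacacacccaca
mmu-miR-15a-5p: tAGCAGCAcataatggtttgtg
mmu-miR-590-5p: gAGCTTATtcataaaagtgcag

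RefSeq rat hairpins held the whole sequence of 39 mouse-named entries without a mismatch, 17 of which were not identical to a rat-named entry. In 11 of the 17 a near-identical rat-named entry from the table was available, and in 6 it was not. Those 6 were both arms of miR-193b, both arms of miR-3064, miR-3084-5p and miR-1896. The miR-193b arms, known from adipocytes and as tumour suppressors, lay at chr10:1824957-1824978 and chr10:1824994-1825015 on the plus strand within an lncRNA span, LOC102547286. The miR-3064 arms lay at chr10:92225561-92225582 and chr10:92225520-92225541 on the minus strand, within the span of Ddx5, an RNA helicase, and RefSeq annotates no rat arm at the first of these positions. For comparison, 646 of the 723 rat-named and 33 of the 749 human-named entries stood in a RefSeq rat hairpin. The sequences are those of the table, and the positions are of GRCr8.
mmu-miR-193b-5p: cGGGGTTTtgagggcgagatga
mmu-miR-193b-3p: aACTGGCCcacaaagtcccgct
mmu-miR-3064-5p: tCTGGCTGttgtggtgtgcaaa
mmu-miR-3064-3p: tGCCACACtgcaacaccttaca

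The name of 13 mouse-named entries stood on a RefSeq rat arm but on no rat-named line of the table. Besides both miR-193b arms and miR-3064-3p these included miR-709, miR-762 and both arms of miR-1199, each of which stood in a rat hairpin with 1 substitution. Of all 368 entries, 192, or 52.2%, had their name attached to a predicted arm as well, and 0 had exactly the sequence of a predicted arm. The predicted arms had a median length of 17 nt against 22 nt, so an exact match was unlikely by length alone and says little about likeness. The share of rat or human names on predicted arms was not worked out. A human-named entry of identical sequence was found for 11, and for 7 of these there was no identical rat entry, among them miR-15a-5p, miR-146b-5p, miR-302b-3p and miR-491-3p.

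Seeds were compared as well, and by construction they link at least as many entries to rat miRNAs as full-length identity does. The 368 entries held 329 distinct seeds, and 99 entries, or 26.9%, had the seed of a rat-named entry. All 24 identical entries are among the 99 by construction. Of the 247 unmatched entries, 28 had a rat seed, or 11.3%. Among the unmatched human-named entries it was 39 of 623, or 6.3%. The miR-15/16 seed was the most frequent, with 8 mouse-named entries, namely miR-15a-5p, miR-16-5p, miR-195a-5p, miR-195b, miR-1907, miR-6342, miR-6353 and miR-6419, beside 5 rat-named ones. The miR-17 seed had 4 mouse-named and 5 rat-named entries. The let-7 seed had 3 and 8, the mouse-named ones being let-7a-5p, let-7k and miR-1961. The miR-21 seed had 3 and 1, with miR-21c and miR-590-5p beside miR-21a-5p. The let-7j entry, in contrast, differed from rat let-7i-5p by G8T, within the seed. The miR-125 seed stood on miR-6367 and miR-6394, the miR-24 seed on miR-6361 and miR-6369, the miR-130 seed on miR-6389 and the miR-1 seed of muscle on miR-6349. A seed is short, and sharing it does not by itself make an entry a relative.

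Across 23 lists of miRNAs by function or cluster, the mouse-named entries were unevenly spread. The lists hold from 1 to 50 family numbers each, so their counts depend on list size too. The lists go by the family number in the name alone, and no mouse genome position was looked up. The list of miR-297, miR-466, miR-467 and miR-669, numbers of which many mouse copies lie in an intron of Sfmbt2, had 35 mouse-named entries and 7 rat-named ones. None of the 35 was identical to a rat-named entry, 8 were near-identical, 14 had the family number only and 13 were unmatched. The miR-17 clusters had 8 entries against 27 rat-named ones, 4 identical and 4 near-identical. The miR-15/16 list had 6 against 12, with 2 identical and 4 of the same family number only. The fibrosis list had 4 against 6, namely miR-21a-5p, miR-21b, miR-21c and miR-199b-5p, with none for miR-214. The let-7 list had 4 against 19, with 1 identical and 3 near-identical.

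The lists for single cell types had few mouse-named entries, and fewer than rat-named ones. This was not particular to them. It held for every list except that of miR-297, miR-466, miR-467 and miR-669, and for the whole table, with 368 mouse-named against 723 rat-named entries. The leukocyte list had 3 mouse-named entries against 10 rat-named ones, all 3 of miR-146 and none for miR-142, miR-150, miR-155 or miR-223. The hepatocyte list had both arms of miR-122 against 6 rat-named entries, the endothelial list miR-126-3p against 3, and the erythroid list both arms of miR-486 against 4. The striated muscle list had the 5p arms of miR-133a and miR-133b against 14, and the contractile list had miR-145b against 4. The lists of miR-181 and of the X-linked testis cluster had 2 and 5 entries against 10 and 23 rat-named ones, and the Dlk1-Dio3 list 4 against 92. The lists of miR-30, of miR-23, miR-24 and miR-27, and of miR-99, miR-100 and miR-125 had 1 each, against 11 rat-named entries each. No mouse-named entry stood for the lists of miR-29, of miR-221 and miR-222, of miR-34 and miR-449, of epithelial miRNAs, of miR-675 or of miR-210. The rat-named lines held 7 entries of miR-29, whose members repress collagen genes, and 9 of the epithelial list. Being listed does not show that a miRNA was present in the cells.

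**Figure D3:**
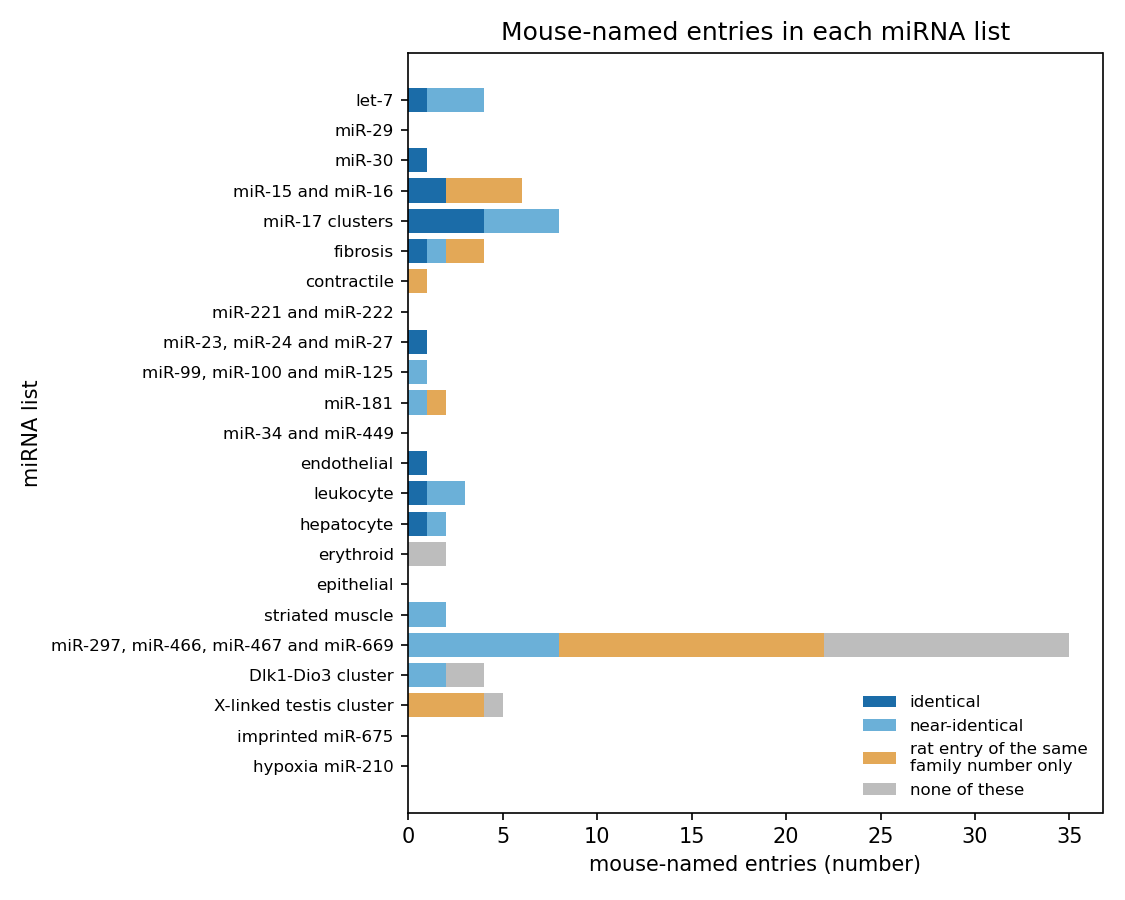
Number of mouse-named entries (horizontal axis) in each of the 23 miRNA lists (vertical axis), split by their relation to the rat-named entries. The list of miR-297, miR-466, miR-467 and miR-669 has 35 entries and no identical one, and the miR-17 clusters come next with 8.

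The 35 entries of miR-297, miR-466, miR-467 and miR-669 had a median G and C content of 36.4%, against 50% for all mouse-named entries. Sequences were repeated among them: miR-466b-3p, miR-466c-3p and miR-466p-3p were the same, as were miR-669a-3p with miR-669o-3p and miR-466m-5p with miR-669m-5p. The only other repeats among the mouse-named entries were miR-486-5p with miR-3107-5p and miR-3070a-5p with miR-3070b-5p, which left 362 distinct sequences. The entry miR-466i-5p, 20 nt long, was a plain repeat of T and G. Its sequence and that of miR-669a-3p are shown for their repeats, with the seed in capitals.
mmu-miR-466i-5p: tGTGTGTGtgtgtgtgtgtg
mmu-miR-669a-3p: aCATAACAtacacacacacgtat

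A few mouse-named sequences recurred in rat promoter windows, taken from RefSeq as the 250 bases before to 50 bases after each gene start and searched on both strands. Of 33469 windows, 72, or 0.215%, held the whole of miR-3473b, which is 20 nt long, and 67, or 0.2%, held miR-466i-5p. The others found were miR-3470b in 16 windows, miR-3473a in 15, miR-690 in 6, and miR-1895 and miR-5126 in 1 each. In all, 7 of the 368 entries, or 1.902%, stood in a window, against 13 rat-named entries, or 1.798%, and 10 human-named entries, or 1.335%. No rat-named entry stood in more than 7 windows and no human-named entry in more than 3. The entries miR-3473b and miR-3473a overlap in sequence, so their windows are not separate. A match is a description of these letters and no sign of a miRNA gene.

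The mouse-named and rat-named entries had the same median length, while the base composition of the mouse-named ones spread more widely. Lengths ran from 17 to 27 nt with a median of 22, and those of the rat-named entries from 17 to 25. The shortest were miR-1928 and miR-1961, and the longest were miR-468-5p, miR-1940 and miR-1946a. The G and C content ran from 22.7% to 100.0% with a median of 50%, and from 22.7% to 78.9% with a median of 47.8% in the rat-named entries. A content of 75% or more was found in 20 mouse-named entries, or 5.435%, in 6 rat-named entries, or 0.83%, and in 64 human-named entries, or 8.545%. The highest were miR-5126 at 100.0%, miR-3960 at 95.0% and miR-2861 and miR-6538 at 94.7%. By relation, the median was 45.5% for the identical, 45.0% for the near-identical, 40.9% for those that shared the family number only and 54.5% for the unmatched entries. A T as first base, which stands for the U that Argonaute proteins favour, began 132 mouse-named entries, or 35.9%, and 263 rat-named ones, or 36.4%. It began 14 of the 24 identical entries, 17 of the 57 near-identical ones, 20 of the 40 that shared the family number only and 81 of the 247 unmatched ones, with no steady order by likeness.

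**Figure D4:**
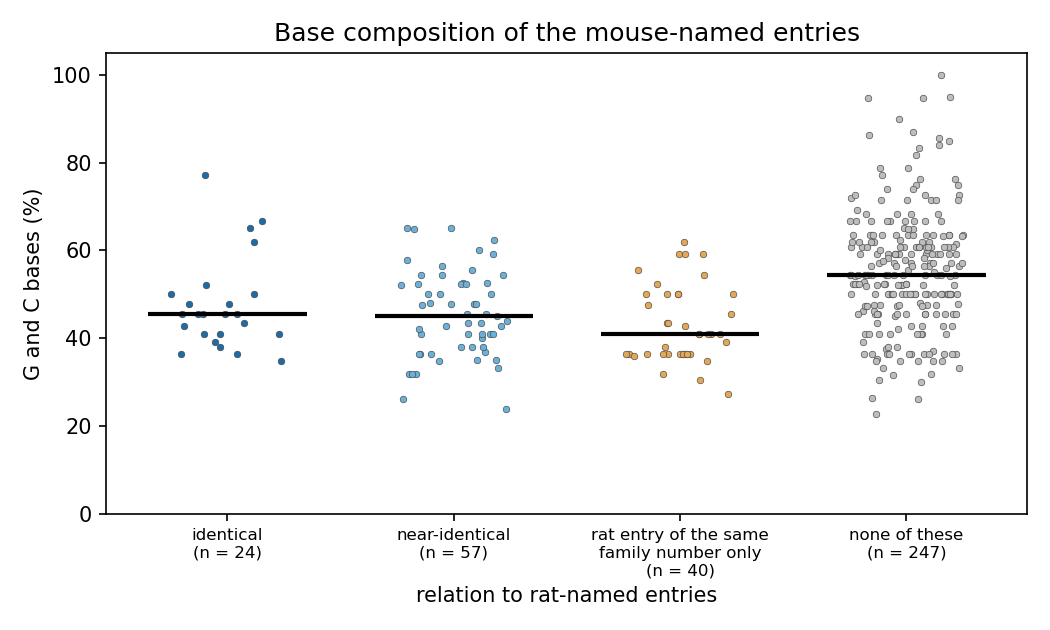
Share of G and C bases in percent (vertical axis) of each mouse-named entry, a point each, by relation to the rat-named entries (horizontal axis). Black bars are medians, at 45.5% for the identical, 45.0% for the near-identical, 40.9% for the family number only and 54.5% for the unmatched entries, and sideways spread within a group has no meaning.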

How the data were processed

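Small RNA was sequenced from 2 samples, 1 per group, and the series has 1 table with a name, a precursor name and a sequence per entry. These text columns were used as the authors deposited them. Of tools, the submitters' processing notes list FastQC. The aligner, the read counter, the genome build and the release of the miRNA database were not given in the sources used here. Its 2 count columns match no sample by name and were not used, so the depth is not given and the planned description of read counts was not run. A few of their first values were seen when the file's layout was read. In the copy used here 5 lines were blank, and what they held was not analysed here.

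Names were sorted by prefix. Each mouse-named sequence was placed without gaps on each rat-named one, and the placement with the fewest substitutions, then the most bases compared, was kept. Seeds, names, RefSeq hairpins and promoter windows of GRCr8 were matched as stated. Gene spans came from the RefSeq gene table. Python 3.11.15, pandas 2.3.3 and matplotlib 3.10.9 were used. The placement was tested on simulated pairs of equal length with substitutions kept away from the ends, and the planted offset was found in 100 of 100. Pairs of unequal length, as in the table, were not simulated. On RefSeq arms, 670 of 670 were found at their coordinates.

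The plan was to name entries identical to a rat-named one, the closest and farthest near-identical ones, up to 6 per list, repeats and the extremes of length. It was not followed in full. Several near-identical entries and list members, such as miR-101b-5p, miR-28b and miR-18b-3p, are not described above. The sequences printed were picked for the reasons given beside them. Other entries, such as miR-3965, miR-574-5p, miR-193b-5p, miR-3473b and miR-5126, were named after their values were seen. The members and the 23 lists were chosen with earlier results of these data known.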

Additional observations from a re-analysis of the deposited data

How the results depend on the processing

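The counts rest on how likeness was defined. The number of mouse-named entries identical to a rat-named one, 24 at full length, was 37 when a sequence contained in the other also counted, 36 by the first 18 bases, and 31 when human-named entries counted too. Near-identical entries, 57, numbered 38 with at most 1 substitution and 78 with at most 3, and, as alternatives chosen after seeing the data, 45 with no overhang and 67 with an overhang of up to 5 bases. Entries sharing a stretch of at least 16 bases with a rat-named entry numbered 60, and 79, 50 and 41 at 14, 18 and 20 bases. Entries with a rat seed, 99, numbered 133 by bases 2 to 7. Name matches, 48, were 61 with the arm ignored and 112 by family number. Exact hairpin matches, 39, were 61 with at most 1 substitution and 75 with at most 2. Entries in a promoter window, 7, were 30 by their first 16 bases and 6 on the strand of the gene, and the promoter search itself, with both alternatives, was chosen after seeing the data. A looser rule can only raise the count that it defines. Loosening the rule for identity can move entries out of the near-identical ones, and looser rules can only lower the number of unmatched entries. Limits on read counts were not tried, since no counts were used. No paired analysis was possible because the result comes from names and sequences, with no test.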
